A study of Mus musculus with 10 samples.

Results

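The 42 interferon-stimulated genes described here are genes whose transcription is known to rise when a cell receives an interferon signal, and they were listed by symbol with earlier results of these data known. All 42 were found among the 48397 gene symbols of the deposited count tables. Bulk RNA-seq was done on left atria taken 2 weeks after surgery from wild-type mice with transverse aortic constriction (TAC), a narrowing of the aortic arch that makes the heart pump against higher pressure, or with a sham operation. Mice were operated on at 2 months of age and were C57BL/6J males per the series' design text, and the groups share strain, genotype, tissue and age. There were 5 TAC and 5 sham libraries, and n counts libraries throughout. Nothing in the labels states that the libraries are from different animals, so the p-values reflect only how these samples vary, which may in part be technical variation. The series' title concerns the transcription factor ETV1 and conduction, and neither the title nor the design text states a question about interferon.

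Interferons are secreted proteins by which cells warn one another of viral or other foreign nucleic acid. Type I interferons act through the receptor chains IFNAR1 and IFNAR2 and the kinases JAK1 and TYK2 to form ISGF3, a complex that holds STAT2 and IRF9 and binds a DNA motif called the interferon-stimulated response element (ISRE). Type II interferon, interferon gamma, acts through its own receptor, and its signal reaches a different motif called the gamma-activated site (GAS). Many induced genes encode proteins that detect, cut or block viral RNA, and in the heart such genes are known from viral myocarditis and from macrophages after injury.

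Promoters of these genes are known for the ISRE and GAS motifs, so a few sequences are shown before the levels. RefSeq promoter windows of the 250 bases before a start site, on GRCm38.p6, were matched for 32 of the 42 genes. GAAA, any 2 bases and GAAA again, searched on both strands as the ISRE, occurred in at least 1 window of 17 of these 32 genes (53.1%), against 3.46% of all 27025 genes with a window. The letters TTCNNNGAA, which read the same on both strands and stand for the GAS, occurred for 9 of 32 (28.1%), against 8.13% of all genes. Matches of either motif may overlap one another, as the 3 ISRE matches of Isg15 do, and the ISRE letters hold no GAS match of their own. The sequences printed here are the last 130 bases before the start, 5′ to 3′ on the gene's own strand, with ISRE and GAS letters in capitals. The windows are Isg15 at chr4:156200819-156200948 on the minus strand, Ifit1 at chr19:34640759-34640888 on the plus strand, Oas1a at chr5:120907526-120907655 on the minus strand, Oas3 at chr5:120777660-120777789 on the minus strand, Gbp2 at chr3:142620533-142620662 on the plus strand and Igtp at chr11:58199426-58199555 on the plus strand. Isg15, Ifit1, Oas1a and Oas3 rose after TAC. Gbp2 carries an ISRE match and Igtp a match of each motif, and neither gene passed the test.
Isg15: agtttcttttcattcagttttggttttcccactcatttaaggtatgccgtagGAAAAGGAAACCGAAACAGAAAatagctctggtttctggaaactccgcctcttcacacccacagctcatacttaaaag
Ifit1: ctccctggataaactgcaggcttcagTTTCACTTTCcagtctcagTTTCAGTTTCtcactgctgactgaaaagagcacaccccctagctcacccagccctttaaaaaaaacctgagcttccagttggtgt
Oas1a: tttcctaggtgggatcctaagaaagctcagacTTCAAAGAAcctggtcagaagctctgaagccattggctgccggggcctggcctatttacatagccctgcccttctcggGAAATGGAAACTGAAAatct
Oas3: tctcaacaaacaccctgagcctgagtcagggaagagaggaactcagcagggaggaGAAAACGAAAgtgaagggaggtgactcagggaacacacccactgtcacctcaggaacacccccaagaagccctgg
Gbp2: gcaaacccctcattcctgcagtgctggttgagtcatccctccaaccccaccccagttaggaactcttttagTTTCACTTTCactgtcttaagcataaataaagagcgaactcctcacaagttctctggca
Igtp: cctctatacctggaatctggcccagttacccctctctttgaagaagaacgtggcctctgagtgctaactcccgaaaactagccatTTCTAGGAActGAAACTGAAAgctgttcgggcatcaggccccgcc
In Isg15 the ISRE letters lie 78 to 57 bases before the start, in Ifit1 104 to 95 and 85 to 76 bases before it, and in Oas3 75 to 66 bases before it. Oas1a holds a GAS match 98 to 90 bases before its start and 2 overlapping ISRE matches 20 to 5 bases before it. In Gbp2 the ISRE match lies 59 to 50 bases before the start. Igtp holds a GAS match at 45 to 37 and an ISRE match at 34 to 25 bases. Among genes that rose, 12 of 20 with a window held the ISRE letters and 3 of 20 the GAS letters. Among genes that were not called, the counts were 5 of 12 and 6 of 12. A match is a description of letters, and absence from this window says nothing about binding.

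Total counts over genes were 29493200 to 41358617 in TAC libraries and 17117306 to 43956384 in sham libraries (exact permutation p = 0.50). Levels are CPM, counts relative to library size, after TMM scaling. A gene was called by edgeR's quasi-likelihood test at a Benjamini-Hochberg adjusted p under 0.05 over the 15175 genes tested. The TAC transcriptome differed broadly, with 28.9% of tested genes called higher and 27.9% called lower. Mitochondrially encoded genes took 10.99% ± 2.097 of counts in TAC and 16.3% ± 1.42 in sham (SD, n = 5), and scaling by library size alone moved the median log2 fold change of all genes from 0.01 to 0.37. All changes below are relative to TMM scaling. The atrial markers Nppa, Myl7, Myl4 and Sln were abundant in both groups, the least abundant being Sln at 1204 ± 206 CPM in TAC and 2626 ± 250.2 CPM in sham, and the ventricular light chain gene Myl2 was at 4.8 ± 3.71 CPM in TAC and 60.3 ± 89.95 CPM in sham.

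Interferon-stimulated genes were mostly higher in the atria of TAC mice. All 42 were tested, and 28 rose (66.7%, against 28.9% of all tested genes), 14 were not called and none fell, where 27.9% of all genes fell. In 25 of the 42 every TAC library lay above every sham library, against 21.5% of all tested genes, and in none did every TAC library lie below, against 20.2%. A log2 fold change of at least 1 was reached by 19 of the genes that rose, against 11.7% of all tested genes. The median log2 fold change of the 42 was 0.80, against 0.01 over all tested genes. No test was made over the list. At an unadjusted edgeR p under 0.05 the count of lower genes was also 0, DESeq2 called 0 lower and limma voom called 1 lower, Ifih1. The largest rises were those of Mx1, Oas3 and Oas1a. Mx1, Oas3, Oasl1 and Oas1a, with 22, 21, 71 and 85 counts over the sham libraries, passed the filter on low counts only through their TAC libraries. Of the guanylate-binding protein genes 1 of 5 rose (20%) and of the immunity-related GTPase genes 1 of 3 (33.3%), against 28.9% of all tested genes. Under scaling by library size alone, 36 of the 42 rose and none fell, beside 51.0% of all tested genes called higher and 12.7% called lower.

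**Figure D1:**
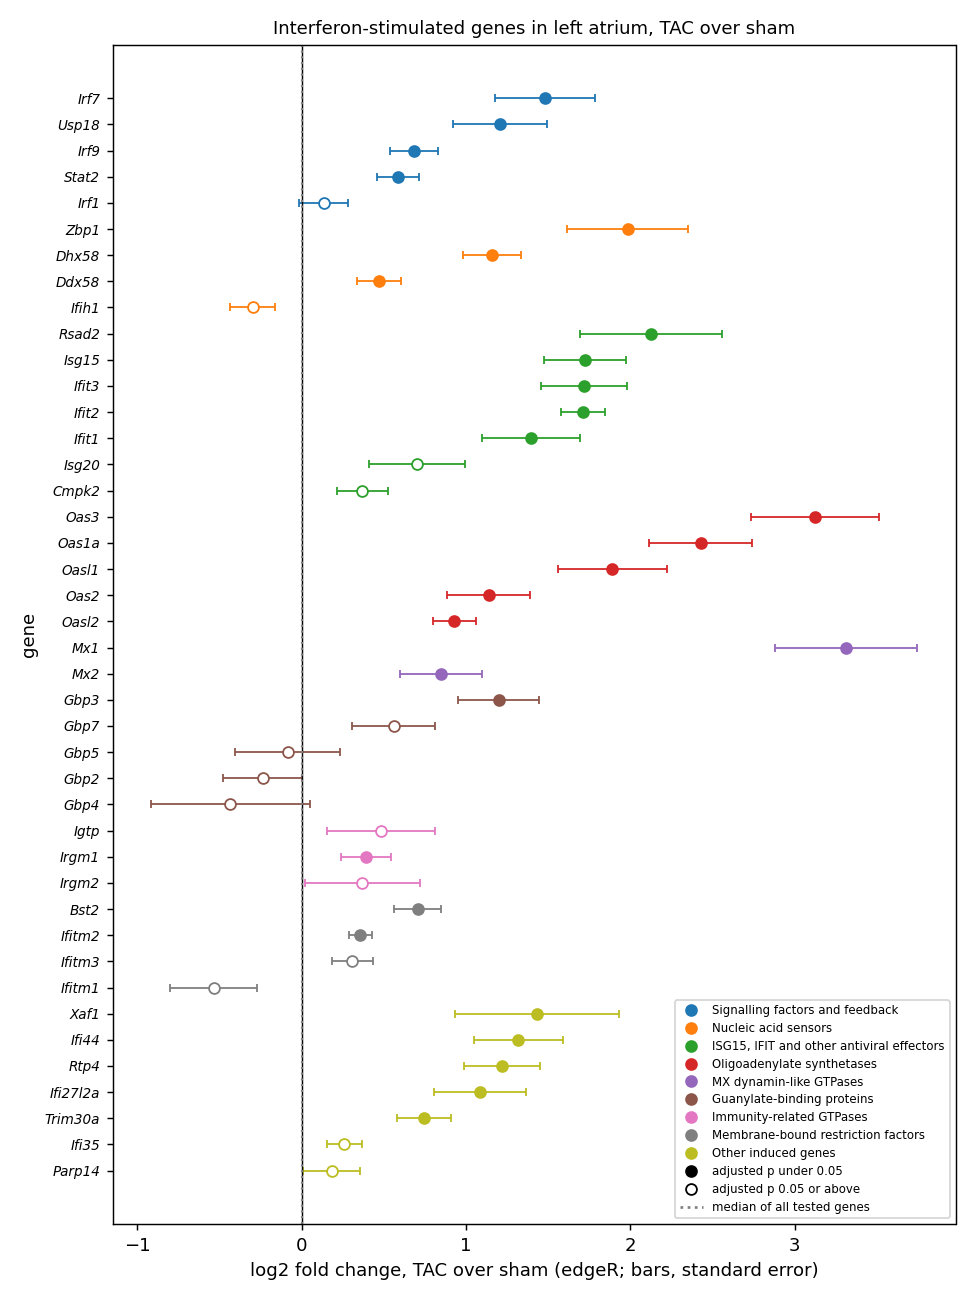
The horizontal axis gives the log2 fold change of each of the 42 genes, TAC over sham, with its standard error, grouped and coloured by role, with filled points for genes at an adjusted p under 0.05 and a dotted line at the median of all tested genes (0.01). Filled points lie to the right of 0 for 28 genes, and the 5 genes left of 0 (Gbp5, Gbp2, Ifih1, Gbp4 and Ifitm1) all have open points.

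Signalling factors rose in 4 of 5 cases (80%, against 28.9% of all tested genes). Irf7, the factor that amplifies type I interferon production (chr7:141262706-141266481, minus strand, GRCm38), had 23.7, 18.9, 23.4, 15.5 and 16.5 CPM in TAC replicates 1 to 5, against 5.65, 5.05, 6.26, 13.7 and 3.9 CPM in sham replicates 1 to 5. The groups did not overlap, although sham replicate 4 stood well above the other sham libraries, and Irf7 rose by more than its spread (log2 fold change 1.48, SE 0.30, edgeR adjusted p = 0.0016). Stat2, the subunit of ISGF3 that carries its main activation domain (chr10:128270559-128292849, plus strand), had 17.4, 20.03, 26.8, 20.1 and 21.6 CPM in TAC replicates 1 to 5, against 15.5, 12.8, 13.8, 16.5 and 11.8 CPM in sham replicates 1 to 5. Every TAC library was above every sham library, by a smaller margin than for Irf7 (log2 fold change 0.59, SE 0.13, edgeR adjusted p = 0.0021). Irf9, the DNA-binding subunit of ISGF3, averaged 24.3 ± 1.67 CPM in TAC and 15.1 ± 3.47 CPM in sham (SD, n = 5 each), and it rose (log2 fold change 0.68, edgeR adjusted p = 0.0020). Usp18, the protease that removes ISG15 from proteins and restrains the type I receptor, averaged 4.09 ± 0.952 CPM in TAC and 1.78 ± 0.636 CPM in sham and rose (log2 fold change 1.21, edgeR adjusted p = 0.0035). Irf1 is a factor best known as an early target of interferon gamma (chr11:53770014-53778374, plus strand), and it had 18.6, 19.8, 25.5, 22 and 28.7 CPM in TAC replicates 1 to 5, against 21.2, 22, 16.8, 26.4 and 18 CPM in sham replicates 1 to 5. Its groups overlapped almost wholly and no change was detected (log2 fold change 0.13, SE 0.15, edgeR adjusted p = 0.46). Within each library, the log2 ratio of Irf7 to Irf1 was -0.23 ± 0.44 in TAC and -1.72 ± 0.53 in sham (SD, n = 5), with every TAC library above every sham library, a pair chosen after the values were seen, for which no p is given.

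Cytosolic sensors of nucleic acid were higher in 3 of 4 cases (75%, against 28.9% of all tested genes). Zbp1, a sensor of Z-form nucleic acid that can start necroptosis (chr2:173206612-173218923, minus strand), had 3.86, 3.36, 6.04, 3.67 and 4.49 CPM in TAC replicates 1 to 5, against 0.931, 0.703, 0.79, 2.29 and 0.488 CPM in sham replicates 1 to 5. Sham replicate 4 was again the highest sham library and still lay below every TAC library (log2 fold change 1.98, SE 0.37, edgeR adjusted p = 0.00075). Ddx58, which encodes the RNA sensor RIG-I (chr4:40203773-40239828, minus strand), had 20.5, 20.03, 19.3, 23.2 and 24.9 CPM in TAC replicates 1 to 5, against 17.5, 16, 14.6, 18.7 and 11.1 CPM in sham replicates 1 to 5. The TAC libraries were higher without overlap, by a modest amount (log2 fold change 0.47, SE 0.13, edgeR adjusted p = 0.011). Dhx58, which encodes LGP2, a relative of RIG-I that lacks the signalling domain, averaged 3.48 ± 0.40 CPM in TAC and 1.54 ± 0.313 CPM in sham and rose (log2 fold change 1.16, edgeR adjusted p = 0.00020). Ifih1, which encodes the long double-stranded RNA sensor MDA5, had 16.9, 13.4, 15.2, 16.1 and 17 CPM in TAC replicates 1 to 5, against 19.9, 21.9, 18.3, 23.1 and 13.5 CPM in sham replicates 1 to 5. Its point estimate went the other way without passing the test (log2 fold change -0.30, SE 0.14, edgeR adjusted p = 0.082). Sham replicate 5 held the lowest sham value of Ifih1, and without that library Ifih1 was called lower (log2 fold change -0.41, edgeR adjusted p = 0.0066, and 0.0066 to 0.77 across 22 alternatives). Scaled by library size alone, its log2 fold change was above 0, at 0.06 (edgeR adjusted p = 0.77).

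Antiviral effectors of the ISG15 and IFIT group were higher in 5 of 7 cases (71.4%, against 28.9% of all tested genes), with a median log2 fold change of 1.71. Isg15, the ubiquitin-like modifier (chr4:156199424-156200818, minus strand), had 10.5, 10.6, 8.73, 7.75 and 8.13 CPM in TAC replicates 1 to 5, against 3.48, 2.68, 3.19, 3.35 and 1.13 CPM in sham replicates 1 to 5. The groups were well separated (log2 fold change 1.72, SE 0.25, edgeR adjusted p = 0.00014). Ifit2, an RNA-binding protein with tetratricopeptide repeats (chr19:34550694-34576419, plus strand), had 23.3, 21.8, 25.4, 27.9 and 26.6 CPM in TAC replicates 1 to 5, against 7.57, 7.16, 7.11, 10.1 and 6.12 CPM in sham replicates 1 to 5. It had the smallest adjusted p of the 42 genes (log2 fold change 1.71, SE 0.13, edgeR adjusted p = 2.2e-06), and its lowest TAC value was above 2 times its highest sham value. Rsad2, which encodes viperin, the enzyme that makes a chain-terminating nucleotide (chr12:26442746-26456452, minus strand), had 3.68, 5.38, 10.7, 7.52 and 5.25 CPM in TAC replicates 1 to 5, against 1.18, 0.767, 1.37, 3.17 and 0.638 CPM in sham replicates 1 to 5. TAC libraries were all higher but varied among themselves, and sham replicate 4 came close to the lowest of them (log2 fold change 2.13, SE 0.43, edgeR adjusted p = 0.0014). Ifit1, which binds viral RNA caps, averaged 8.79 ± 0.831 CPM in TAC and 3.31 ± 1.61 CPM in sham and rose (log2 fold change 1.39, edgeR adjusted p = 0.0019). Ifit3, its binding partner, averaged 15.9 ± 2.97 CPM in TAC and 4.78 ± 2.05 CPM in sham and rose (log2 fold change 1.72, edgeR adjusted p = 0.00020). Reads that align both to Ifit3 and to its near-identical copy Ifit3b may have gone uncounted. Cmpk2, the mitochondrial nucleotide kinase next to Rsad2 on chromosome 12, averaged 6.68 ± 0.816 CPM in TAC and 5.16 ± 0.979 CPM in sham and did not pass (log2 fold change 0.37, edgeR adjusted p = 0.059). Isg20, an RNA exonuclease, averaged 7.17 ± 4.06 CPM in TAC and 4.42 ± 0.548 CPM in sham and did not pass (log2 fold change 0.70, edgeR adjusted p = 0.059), and TAC replicate 3 with 14.4 CPM stood apart from the other TAC libraries, which were between 4.97 and 6.03 CPM. Without TAC replicate 3 the log2 fold change of Isg20 was 0.29 (edgeR adjusted p = 0.11). Over 22 alternatives (edgeR, DESeq2 or limma) Isg20 was called in 6 (adjusted p from 0.0081 to 0.16) and Cmpk2 in 5 (from 0.0029 to 0.17). Both were called by DESeq2 (0.039 for Isg20, 0.045 for Cmpk2) and in edgeR with upper-quartile factors (0.047 for Isg20, 0.038 for Cmpk2) or library size alone, and otherwise Isg20 only without TAC replicate 1, 4 or 5 and Cmpk2 only without TAC replicate 2 or sham replicate 1.

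**Figure D2:**
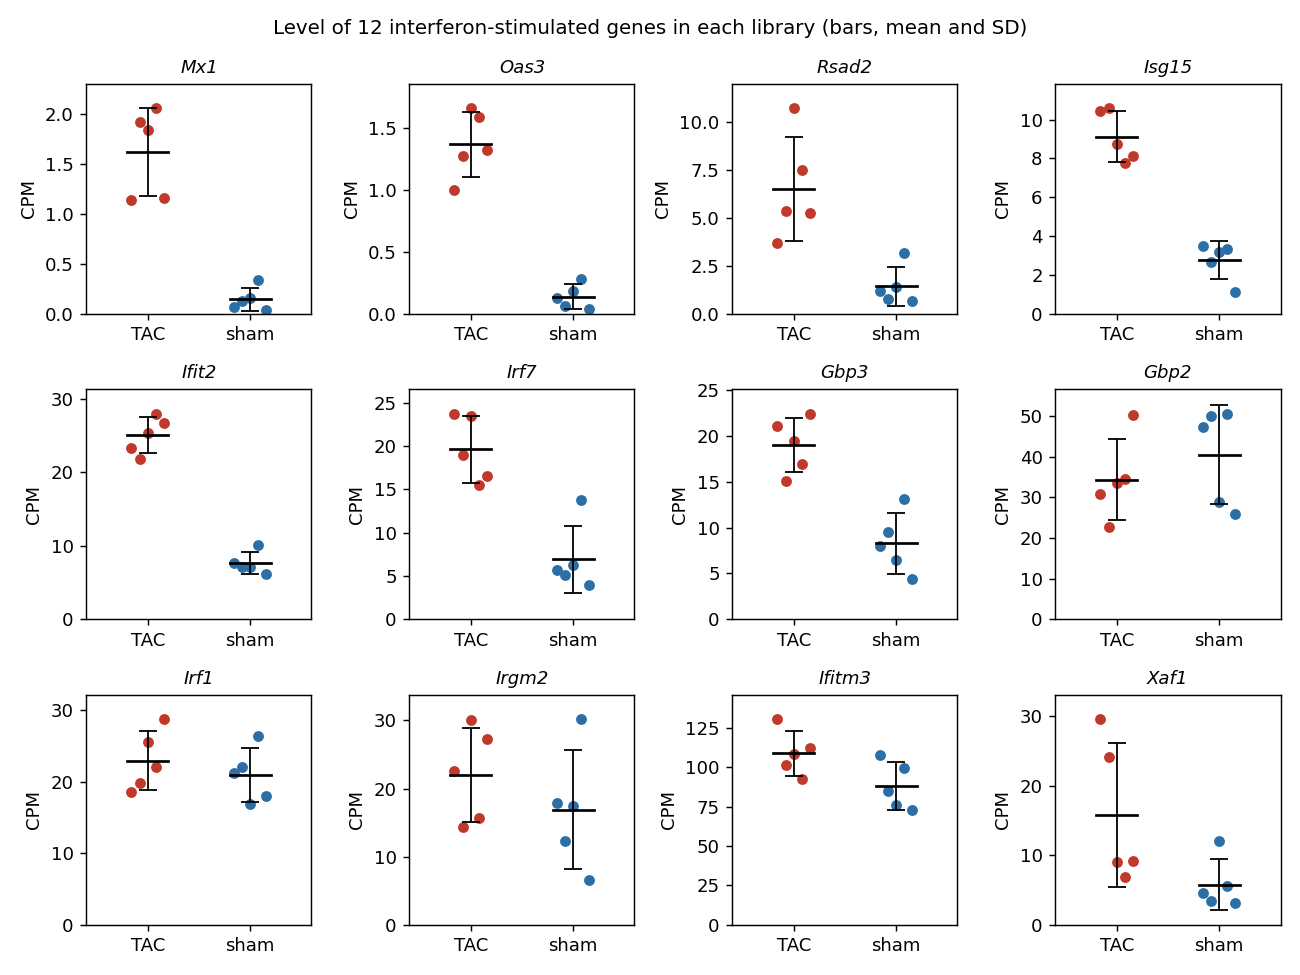
Each panel plots the CPM of 1 gene in the 5 TAC and the 5 sham libraries as points, with bars for mean and SD and a vertical axis from 0. Mx1, Oas3, Rsad2, Isg15, Ifit2, Irf7 and Gbp3 show no overlap between groups, whereas Gbp2, Irf1, Irgm2 and Ifitm3 overlap and Xaf1 has TAC replicates 1 and 2 at 29.5 and 24.1 CPM above the rest.

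Oligoadenylate synthetases make or resemble the enzymes that make the short oligoadenylates that switch on RNase L, an enzyme that degrades RNA. All 5 rose without overlap of the groups, with a median log2 fold change of 1.89. Of all tested genes 28.9% rose, and 21.5% had every TAC library above every sham library. Oas3, Oasl1 and Oas1a passed the filter on low counts only through their TAC libraries. Oas3, the member with 3 synthetase units (chr5:120753098-120777661, minus strand), had 0.995, 1.27, 1.66, 1.59 and 1.32 CPM in TAC replicates 1 to 5, against 0.124, 0.0639, 0.182, 0.283 and 0.0375 CPM in sham replicates 1 to 5. It was scarce in sham, with 254 counts over the TAC libraries and 21 over the sham libraries, and every TAC library was above every sham library (log2 fold change 3.12, SE 0.39, edgeR adjusted p = 4.6e-05). Oasl2, a synthetase-like protein with ubiquitin-like domains (chr5:114896936-114912234, plus strand), had 23.4, 20.4, 23.8, 18.8 and 25.8 CPM in TAC replicates 1 to 5, against 15.3, 12.3, 9.7, 11.2 and 10.7 CPM in sham replicates 1 to 5. It had the highest CPM of these genes and the smallest rise (log2 fold change 0.93, SE 0.13, edgeR adjusted p = 0.00011). Oas1a averaged 3.57 ± 1.06 CPM in TAC and 0.675 ± 0.267 CPM in sham and rose (log2 fold change 2.43, edgeR adjusted p = 5.8e-05). Oas2 averaged 3.03 ± 1.03 CPM in TAC and 1.38 ± 0.25 CPM in sham and rose (log2 fold change 1.14, edgeR adjusted p = 0.0023). Oasl1, which in mice restrains translation of Irf7, averaged 1.87 ± 0.292 CPM in TAC and 0.472 ± 0.293 CPM in sham and rose (log2 fold change 1.89, edgeR adjusted p = 0.00051). Mice carry several Oas1 copies of like sequence, so reads that align both to Oas1a and to a relative may have gone uncounted.

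MX proteins are dynamin-like GTPases that trap viral nucleocapsids, and both genes rose, where 28.9% of all tested genes did. Mx1, which is known to be defective in most laboratory strains including C57BL/6 (chr16:97447035-97462907, minus strand), had 1.13, 1.92, 1.84, 2.06 and 1.16 CPM in TAC replicates 1 to 5, against 0.0621, 0.128, 0.152, 0.335 and 0.0375 CPM in sham replicates 1 to 5. It had the largest log2 fold change of the 42 genes (log2 fold change 3.31, SE 0.43, edgeR adjusted p = 6.3e-05), on 302 counts over the TAC libraries and 22 over the sham libraries. Mx2 lies next to Mx1 on chromosome 16 (chr16:97535308-97560900, plus strand) and had 2.06, 2.19, 2.75, 2.08 and 1.42 CPM in TAC replicates 1 to 5, against 1.49, 1.41, 1.06, 1.26 and 0.675 CPM in sham replicates 1 to 5. Only TAC replicate 5 overlapped the sham libraries, and Mx2 rose less than Mx1 (log2 fold change 0.85, SE 0.25, edgeR adjusted p = 0.012). The log2 ratio of Mx1 to Mx2 within a library was -0.39 ± 0.33 in TAC and -3.39 ± 1.07 in sham (SD, n = 5), with no overlap, again a pair chosen after the values were seen and given no p.

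Guanylate-binding proteins and immunity-related GTPases are large GTPases that attack the membranes of intracellular pathogens and are best known as interferon gamma targets. They were the roles with the smallest shares of calls, 1 of 5 (20%) and 1 of 3 (33.3%), near the 28.9% of all tested genes called higher. Gbp3 (chr3:142560026-142573209, plus strand) had 21.1, 15.1, 19.5, 17 and 22.5 CPM in TAC replicates 1 to 5, against 7.95, 9.52, 6.47, 13.1 and 4.35 CPM in sham replicates 1 to 5. All TAC libraries were higher (log2 fold change 1.198, SE 0.25, edgeR adjusted p = 0.0015). Gbp2 lies in the same cluster (chr3:142620602-142638008, plus strand) and had 31, 22.6, 33.6, 34.5 and 50.2 CPM in TAC replicates 1 to 5, against 47.4, 50.2, 28.9, 50.6 and 25.8 CPM in sham replicates 1 to 5. Its groups overlapped (log2 fold change -0.24, SE 0.24, edgeR adjusted p = 0.42). Gbp4 averaged 5.38 ± 2.22 CPM in TAC and 7.28 ± 5.04 CPM in sham (log2 fold change -0.43, edgeR adjusted p = 0.47), Gbp5 averaged 8.26 ± 2.27 CPM in TAC and 8.74 ± 4.15 CPM in sham (log2 fold change -0.08, edgeR adjusted p = 0.84) and Gbp7 averaged 16 ± 3.0 CPM in TAC and 10.9 ± 4.05 CPM in sham (log2 fold change 0.56, edgeR adjusted p = 0.078), none of them called. Within a library the log2 ratio of Gbp3 to Gbp2 was -0.82 ± 0.27 in TAC and -2.33 ± 0.27 in sham (SD, n = 5), without overlap, for a pair chosen after the values were seen. Irgm1, a regulator of the other immunity-related GTPases (chr11:48861968-48871683, minus strand), had 28.1, 24.4, 30.8, 28.4 and 31.9 CPM in TAC replicates 1 to 5, against 21.8, 19.3, 19.8, 31.4 and 16.8 CPM in sham replicates 1 to 5. Sham replicate 4 lay inside the TAC range, and the rise was close to the threshold (log2 fold change 0.39, SE 0.15, edgeR adjusted p = 0.043). Its call was lost without any of TAC replicates 3, 4 or 5 or sham replicates 1, 2, 3 or 5 taken singly, with edgeR adjusted p from 0.057 to 0.10, and 0.0011 to 0.17 across 22 alternatives. Irgm2 averaged 22 ± 6.9 CPM in TAC and 16.9 ± 8.73 CPM in sham (log2 fold change 0.37, edgeR adjusted p = 0.39) and Igtp averaged 13.9 ± 4.8 CPM in TAC and 9.86 ± 4.77 CPM in sham (log2 fold change 0.48, edgeR adjusted p = 0.23), neither called. These last 2 genes share exon sequence, 8.01% of the exonic bases of Igtp and 4.39% of those of Irgm2, so some of their reads may be counted as ambiguous. Without sham replicate 4, Gbp7 (edgeR adjusted p = 0.023) and Igtp (0.028) were called higher, and Gbp7 was also called without TAC replicate 2 (0.044). Over 22 alternatives Gbp7 was called in 4 (adjusted p from 0.013 to 0.14) and Igtp in 2 (from 0.028 to 0.47).

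Membrane-bound restriction factors stop viruses at entry or release. Bst2, or tetherin, holds budding virions at the cell surface (chr8:71534255-71537456, minus strand), and it had 45, 41.4, 47.8, 31.9 and 54.4 CPM in TAC replicates 1 to 5, against 30.2, 29.8, 22.9, 30.2 and 22.3 CPM in sham replicates 1 to 5. The groups did not overlap (log2 fold change 0.71, SE 0.14, edgeR adjusted p = 0.0014). Ifitm3, which blocks fusion of virions with endosomes (chr7:141009586-141010770, minus strand), had 130.5, 101, 109, 92.3 and 112 CPM in TAC replicates 1 to 5, against 108, 84.6, 75.7, 99.2 and 72.8 CPM in sham replicates 1 to 5. The groups overlapped and the difference fell just short of the threshold (log2 fold change 0.31, SE 0.12, edgeR adjusted p = 0.053). It was called in 9 of 22 alternatives (adjusted p from 0.0013 to 0.13), among them the fits without TAC replicate 2 or 4 or sham replicate 1 or 4. Ifitm2 averaged 28.7 ± 1.56 CPM in TAC and 22.4 ± 1.5 CPM in sham and rose by a small, even amount (log2 fold change 0.36, edgeR adjusted p = 0.0012), with 40.9% of its exonic bases shared with the annotated gene Gm45717. Ifitm1 averaged 0.909 ± 0.20 CPM in TAC and 1.33 ± 0.411 CPM in sham and did not pass (log2 fold change -0.53, edgeR adjusted p = 0.11), although it was called lower without sham replicate 5 (log2 fold change -0.68, edgeR adjusted p = 0.040, and 0.040 to 0.57 across 22 alternatives).

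Among 7 further induced genes 5 rose (71.4%, against 28.9% of all tested genes). Ifi27l2a, a small protein of intracellular membranes (chr12:103442167-103443680, minus strand), had 60.7, 48.1, 48.8, 26.2 and 27.7 CPM in TAC replicates 1 to 5, against 22.8, 25.5, 23.8, 11.1 and 17 CPM in sham replicates 1 to 5. TAC replicates 1 to 3 were the highest and TAC replicates 4 and 5 were only slightly above the highest sham library (log2 fold change 1.08, SE 0.28, edgeR adjusted p = 0.0062). Xaf1, a partner of the apoptosis inhibitor XIAP (chr11:72301629-72313733, plus strand), had 29.5, 24.1, 9.0, 6.78 and 9.16 CPM in TAC replicates 1 to 5, against 4.59, 3.45, 12.1, 5.49 and 3.08 CPM in sham replicates 1 to 5. Its high TAC values came from replicates 1 and 2, sham replicate 3 lay above TAC replicates 3, 4 and 5, and the call (log2 fold change 1.43, SE 0.50, edgeR adjusted p = 0.030) was lost without TAC replicate 1 or 2 or sham replicate 1, 2, 4 or 5 (edgeR adjusted p from 0.056 to 0.080, and 0.0065 to 0.13 across 22 alternatives). Ifi44 averaged 5.8 ± 1.49 CPM in TAC and 2.33 ± 0.923 CPM in sham (log2 fold change 1.32, edgeR adjusted p = 0.0015). Rtp4, a chaperone of G protein-coupled receptors, averaged 10.9 ± 2.35 CPM in TAC and 4.7 ± 1.65 CPM in sham (log2 fold change 1.22, edgeR adjusted p = 0.00090). Trim30a, a ubiquitin ligase family protein known to dampen NF-kB signalling, averaged 13.9 ± 1.61 CPM in TAC and 8.3 ± 1.98 CPM in sham (log2 fold change 0.74, edgeR adjusted p = 0.0021). These 3 genes rose without overlap of the groups. Ifi35, a partner of NMI, averaged 12.7 ± 1.37 CPM in TAC and 10.6 ± 1.11 CPM in sham (log2 fold change 0.26, edgeR adjusted p = 0.055) and the ADP-ribosyltransferase Parp14 averaged 27.6 ± 2.72 CPM in TAC and 24.3 ± 6.66 CPM in sham (log2 fold change 0.18, edgeR adjusted p = 0.39), and neither passed. Ifi35 was called in 4 of 22 alternatives (adjusted p from 0.00089 to 0.30), among them the fits without TAC replicate 4 or sham replicate 3. Exonic bases were shared with annotated neighbours for 13.9% of Rtp4, 16.8% of Ifi35 and 11.3% of Gbp7.

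Levels per kb of exon spread widely. Ifitm3 was the highest of the 42 genes in both groups, at 161 CPM per kb in TAC and 129.9 in sham, followed by Ifi27l2a at 91.4 in TAC and 43.3 in sham. Oas3 was the lowest in both, at 0.193 CPM per kb in TAC and 0.0196 in sham, and Mx1 was next at 0.428 and 0.0377. The 2 genes with the largest log2 fold changes were thus the 2 scarcest per kb, and Oas3 lay at the 6.19th percentile of tested genes in TAC and the 0.42nd in sham. Isg15 lay at the 79.6th percentile in TAC and the 51.7th in sham.

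**Figure D3:**
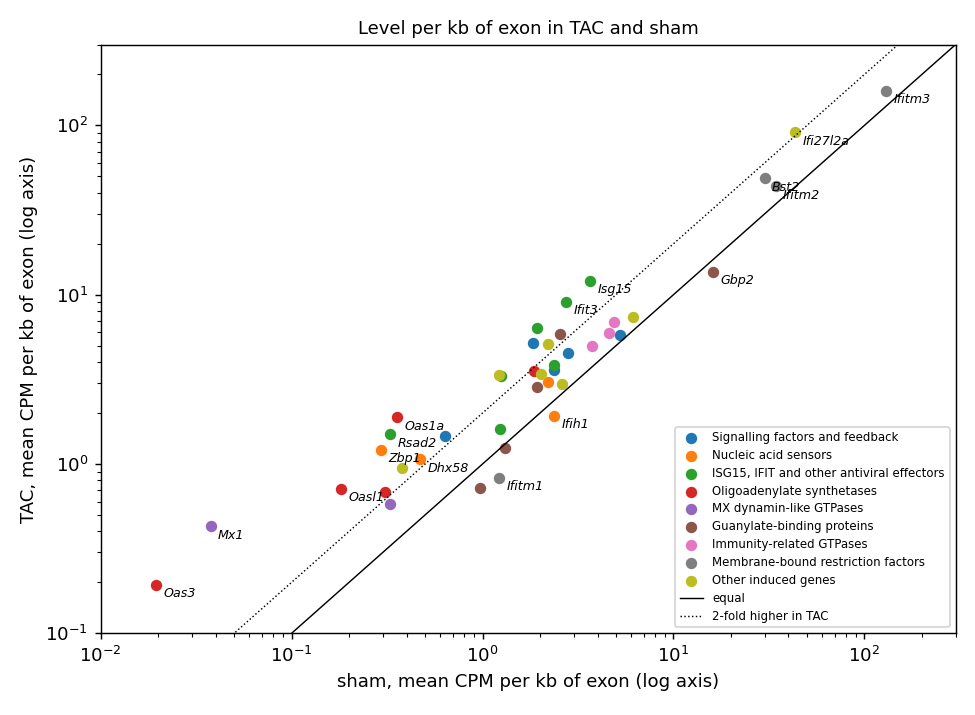
Each point is 1 of the 42 genes, placed by its mean CPM per kb of exon in TAC (vertical log axis) and in sham (horizontal log axis) and coloured by role, with lines for equality and for a 2-fold higher level in TAC. Oas3 and Mx1 sit at the low end, far above the equality line, and Ifitm3 sits at the high end, near it.

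Libraries of a group did not all carry these genes alike. The summed CPM of the 42 genes was 761, 646, 760.4, 631 and 760.1 in TAC replicates 1 to 5, against 534, 484, 446, 596 and 345 in sham replicates 1 to 5, without overlap. Sham replicate 4 was the highest sham library for 25 genes and sham replicate 5 the lowest for 34, with median log2 deviations from the sham mean of 0.36 and -0.60. The same medians over all tested genes were 0.01 and 0.00. Among TAC libraries the medians ran from -0.12 in replicate 2 to 0.10 in replicate 5. The coefficient of variation between libraries was larger in sham for 34 of 42 genes, with a median of 18.8% in TAC and 30.4% in sham. Leaving out sham replicate 4 gave 30 genes higher and none lower, and leaving out sham replicate 5 gave 26 higher and 2 lower, so the prevailing direction did not rest on either library. Without sham replicate 4 the log2 fold change of Mx1 was 3.996 instead of 3.31. With both left out, a setting added after the data were seen, 27 genes were higher and 1 was lower.

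**Figure D4:**
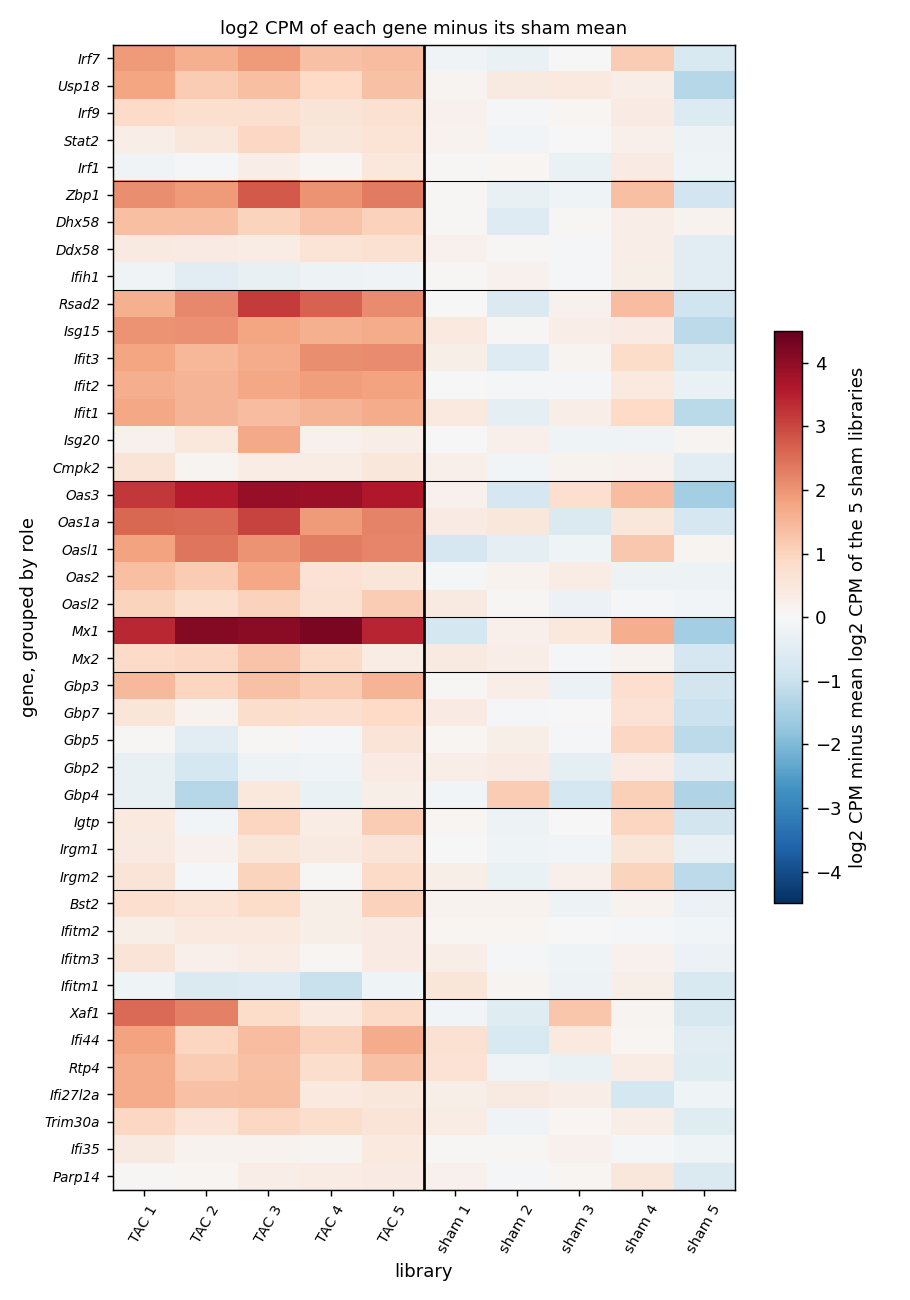
Colours give log2 CPM of each of the 42 genes (down the page, grouped by role) in each library (across, TAC left of sham) minus the mean log2 CPM of the 5 sham libraries. TAC columns are red for most genes of the oligoadenylate, MX and IFIT rows, and among sham columns replicate 4 is redder and replicate 5 bluer than the rest, with 25 of the highest and 34 of the lowest sham values.

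Interferon genes themselves were nearly absent from the counts. Of 21 ligand genes 20 had no count in any library, and Ifng had 1 count over the TAC libraries and 3 over the sham libraries. A count of 0 allows a level of up to 0.0179 CPM, before TMM scaling, over the 5 TAC libraries (167633616 counts) and 0.0201 over the 5 sham libraries (148996252 counts), for counting error only. No ligand gene could be tested, so a difference in them was not detectable at this depth.

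Receptor and JAK-STAT genes were called at shares near those of all genes. Of 21 tested, 7 rose (33.3%, against 28.9% of all tested genes), 6 fell (28.6%, against 27.9%) and 8 were not called, with a median log2 fold change of 0.22. With factors for library size alone, 14 were called higher and 2 lower, beside 51.0% and 12.7% of all tested genes. Ifnar1, a chain of the type I receptor, had 41.9, 55.4, 48.7, 56.7 and 46.9 CPM in TAC replicates 1 to 5, against 30.5, 29.7, 28.1, 31.5 and 24.5 CPM in sham replicates 1 to 5. The groups did not overlap (log2 fold change 0.79, SE 0.10, edgeR adjusted p = 4.6e-05). Ifngr1, a chain of the interferon gamma receptor, averaged 92.1 ± 6.89 CPM in TAC and 58.3 ± 4.61 CPM in sham and rose (log2 fold change 0.66, edgeR adjusted p = 2.7e-05). Ptpn6, a phosphatase abundant in blood cells that restrains JAK signalling, averaged 14.1 ± 3.78 CPM in TAC and 2.88 ± 1.3 CPM in sham and rose (log2 fold change 2.27, edgeR adjusted p = 7.4e-05). Jak1, the kinase shared by both receptors, averaged 149 ± 9.17 CPM in TAC and 242 ± 16.1 CPM in sham and fell (log2 fold change -0.70, edgeR adjusted p = 1.5e-05). Stat3, which serves the gp130 cytokines, averaged 170.0 ± 16.6 CPM in TAC and 321 ± 22.1 CPM in sham and fell (log2 fold change -0.92, edgeR adjusted p = 7.2e-06). Pias1, a SUMO ligase that restrains interferon signalling, averaged 25.1 ± 1.11 CPM in TAC and 34.8 ± 2.0 CPM in sham and fell (log2 fold change -0.47, edgeR adjusted p = 9.0e-05), although its log2 fold change was -0.11 (edgeR adjusted p = 0.26, and 8.5e-10 to 0.26 across 22 alternatives) when scaled by library size alone.

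Genes of nucleic acid sensing upstream of interferon were mostly higher. Of 23 tested, 14 rose (60.9%, against 28.9% of all tested genes) and 3 fell (13.0%, against 27.9%), with a median log2 fold change of 0.48. Ikbke, a kinase of IRF3 and IRF7, averaged 4.96 ± 1.17 CPM in TAC and 1.6 ± 0.30 CPM in sham and rose (log2 fold change 1.63, edgeR adjusted p = 5.3e-05). The endosomal RNA receptors Tlr7 (log2 fold change 0.98, edgeR adjusted p = 0.00014) and Tlr8 (log2 fold change 1.68, edgeR adjusted p = 0.00021) rose without overlap of the groups. Traf6, the ubiquitin ligase of the Toll-like receptor pathway, averaged 18.7 ± 1.33 CPM in TAC and 27.3 ± 0.653 CPM in sham and fell (log2 fold change -0.54, edgeR adjusted p = 5.0e-05). Mavs, the adaptor of RIG-I and MDA5, averaged 51.8 ± 8.67 CPM in TAC and 78.7 ± 7.89 CPM in sham and fell (log2 fold change -0.60, edgeR adjusted p = 0.00083). Irak1, a kinase downstream of the Toll-like receptors, averaged 83.6 ± 4.99 CPM in TAC and 108 ± 8.47 CPM in sham and fell (log2 fold change -0.37, edgeR adjusted p = 0.0010). None of these 3 was called lower when scaled by library size alone. Trex1, a DNA exonuclease, is listed at 0 in every library, and all of its exonic bases (100%) are shared with Atrip in the annotation.

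Other interferon-stimulated genes, a list of 50 beside the 42, were also higher more often than lower. Of 46 tested, 26 rose (56.5%, against 28.9% of all tested genes) and 2 fell (4.35%, against 27.9%), with a median log2 fold change of 0.77. The smallest adjusted p among those that rose belonged to Slfn2, a Schlafen gene known for T cell quiescence (log2 fold change 1.67, edgeR adjusted p = 3.8e-06), Slfn9 (log2 fold change 2.86, edgeR adjusted p = 2.1e-05) and Ifi30, a lysosomal thiol reductase of antigen processing (log2 fold change 1.37, edgeR adjusted p = 2.3e-05). Slfn5, the most abundant by CPM, averaged 62.4 ± 6.78 CPM in TAC and 71 ± 9.82 CPM in sham and was not called (log2 fold change -0.19, edgeR adjusted p = 0.16), but was lower without sham replicate 5 (log2 fold change -0.26, edgeR adjusted p = 0.042, and 0.042 to 0.40 across 22 alternatives) and above 0 when scaled by library size alone (log2 fold change 0.17). The 2 that fell were Ifi205, a gene of the interferon-inducible HIN-200 cluster (log2 fold change -1.88, edgeR adjusted p = 4.4e-05), and Ifit1bl1 (log2 fold change -0.77, edgeR adjusted p = 0.0085).

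Markers of some blood cell types moved with the same comparison. Counts of called markers stand beside 28.9% of all tested genes called higher and 27.9% called lower. In bulk tissue, fewer cells of a type and less RNA per cell cannot be told apart, and the same holds for more cells and more RNA. All 6 pan-leukocyte markers rose, and their summed level was 93, 209, 202, 159.9 and 143 in TAC replicates 1 to 5, against 42.3, 38.5, 31, 63.4 and 29.3 in sham replicates 1 to 5 (CPM, exact permutation p = 0.0079, 0.015 adjusted over 11 lists). All 11 tested of 12 macrophage and monocyte markers rose, with summed levels of 843 to 1428 CPM in TAC, against 342 to 602 CPM in sham (exact permutation p = 0.0079, 0.015 adjusted over 11 lists). The 6 neutrophil markers summed to 4.64 to 11 CPM in TAC, against 0.831 to 3.79 CPM in sham, with Ly6g at 0 in every sham library (exact permutation p = 0.0079, 0.015 adjusted over 11 lists). Markers of natural killer cells summed to 0.971 to 3.26 CPM in TAC, against 0.30 to 1.06 CPM in sham (exact permutation p = 0.016, 0.025 adjusted over 11 lists), those of B cells to 1.2 to 3.05 CPM in TAC, against 0.338 to 2.17 CPM in sham (exact permutation p = 0.040, 0.055 adjusted over 11 lists) and those of T cells to 1.92 to 5.6 CPM in TAC, against 2.66 to 8.13 CPM in sham (exact permutation p = 0.23, 0.26 adjusted over 11 lists). These sums rest on few counts. Only 3 of 6 neutrophil, 1 of 7 natural killer, 1 of 5 B cell and 4 of 8 T cell markers could be tested singly. Among markers of plasmacytoid dendritic cells, which are known as strong makers of type I interferon, the defining gene Siglech averaged 0.523 ± 0.35 CPM in TAC and 1.0 ± 0.413 CPM in sham and was not called (log2 fold change -0.92, edgeR adjusted p = 0.13). The summed level of that list, 466 to 814 CPM in TAC, against 1136 to 1369 CPM in sham, was carried by Cox6a2 and Tcf4, which heart tissue also expresses, and it holds Bst2, one of the 42 genes.

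Fibroblast markers summed to 3563 to 8724 CPM in TAC, against 1688 to 2213 CPM in sham (exact permutation p = 0.0079, 0.015 adjusted over 11 lists). Of these 8 markers, 6 were called higher (75%, against 28.9% of all tested genes) and 1 lower (12.5%, against 27.9%). Endothelial markers summed to 964 to 1331 CPM in TAC, against 895 to 1284 CPM in sham (exact permutation p = 0.24, 0.26 adjusted over 11 lists). Taken singly, 5 of 8 endothelial markers were called higher (62.5%, against 28.9% of all tested genes) and 1 lower. Atrial cardiomyocyte markers summed to 42856 to 55432 CPM in TAC, against 79539 to 93953 CPM in sham (exact permutation p = 0.0079, 0.015 adjusted over 11 lists). Of the atrial markers 7 of 8 were lower (87.5%, against 27.9% of all tested genes) and Nppa was higher. The 4 ventricular markers summed to 17.9 to 327 CPM in TAC, against 21.2 to 540.2 CPM in sham (exact permutation p = 0.57, 0.57 adjusted over 11 lists). Here 0.0079 is the smallest p that the 252 regroupings allow. The part of cell makeup in the rise of the interferon-stimulated genes was not tested. Between libraries of a group the leukocyte markers and the 42 genes did not always keep the same order. TAC replicate 2 had the highest pan-leukocyte sum of all libraries and the lowest median deviation of the 42 genes among TAC libraries. TAC replicate 1 had the lowest pan-leukocyte sum among TAC libraries, and a median deviation of 0.06. Among sham libraries, replicate 4 was highest and replicate 5 lowest in both.

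**Figure D5:**
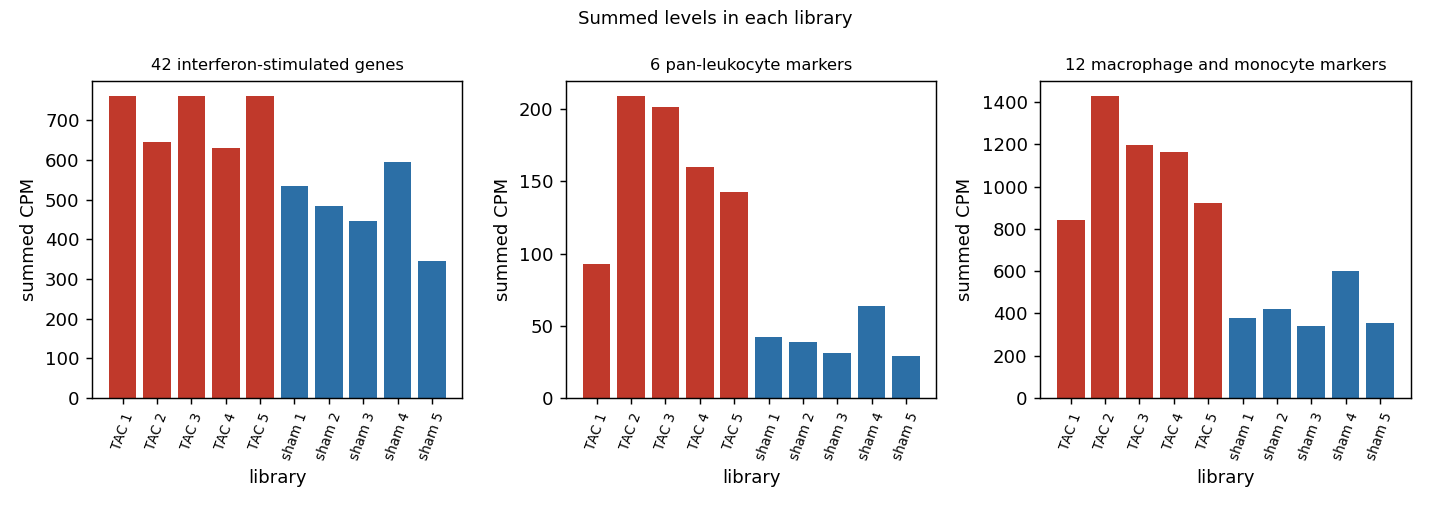
Bars from 0 give the summed CPM in each library (TAC left of sham) of the 42 genes, of the 6 pan-leukocyte markers and of the 12 macrophage and monocyte markers. All TAC bars are taller than all sham bars in each panel, with the pan-leukocyte sum at 93.0 to 209 CPM in TAC and 29.3 to 63.4 CPM in sham.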

How the data were processed

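Bulk RNA-seq of left atrium was compared between 5 TAC and 5 sham libraries, grouped by the library titles. The authors deposited raw, unnormalized counts for each gene symbol in a table for every library. Per the submitters' processing notes, which give no versions, STAR, bcl2fastq and build mm10 were used. What counted the reads, on which strand and against which annotation is not given in the sources used here, so antisense reads cannot be separated. The sources differ on material and kits. The design text names the left appendage and a TruSeq kit, while the sample labels name the left atrium and a Trio kit for low input. Each table ends with 5 tallies that name no gene, which stayed out of library sizes and tests, among them reads in no gene (3.76% in TAC, 3.12% in sham), ambiguous reads (5.79% in TAC, 4.31% in sham) and reads with several alignments (13.4% in TAC, 15.8% in sham). Coordinates and exon overlaps come from GENCODE M21 on GRCm38, matched for 46294 of 48397 symbols, and promoter windows from RefSeq on GRCm38.p6.

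Counts were tested with edgeR 4.0.16 in R 4.3.3 (quasi-likelihood F test, TMM factors, filterByExpr, robust estimation, group only), with Benjamini-Hochberg adjustment over 15175 genes and a threshold of 0.05. The standard error is the size of the log2 fold change (TAC over sham) divided by the square root of F. CPM are counts relative to TMM-scaled library size, given as mean ± SD over 5 libraries. Marker sums were compared with two-sided exact permutation tests over all 252 regroupings, and intervals from counts cover counting error only. The members and the gene lists were chosen with earlier results of these data known. The rule for named genes gives per-library values for the largest called rise and fall and the highest mean CPM in each role, and for Ifitm3, Isg15, Irf7, Irf1 and Stat2. From the other lists it takes up to 3 called genes per direction with the smallest adjusted p and the most abundant. Ifih1, Ifnar1 and the ratios of genes were added after their values were seen. Alternatives were library-size, DESeq2 and upper-quartile factors, DESeq2 1.42.0, no filter or a filter of 1 CPM in 5 libraries, limma 3.58.1 voom with quality weights, a replicate block, mitochondrial genes removed, a threshold of 0.01 and each library left out. The 22 alternatives also held the fits without sham replicates 1 and 2, the shallowest libraries, and without sham replicates 4 and 5, both unplanned. The test was checked on simulated data in which few genes were changed. It recovered 46.3% of 1.5-fold, 70.1% of 2-fold and 89.4% of 4-fold changes, and 4.2% of its 143 calls were false. A gene that was not called may therefore still have changed. An item withheld for evaluation is not reported here.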

Additional observations from a re-analysis of the deposited data

Results flagged for a closer look

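Among 84 groups of 5 libraries (42 genes in TAC and in sham), 7 held a library whose gap to its nearest neighbour was more than 0.71 of the group's range, where chance gives about 1 in 20. In TAC, Isg20 had 14.4 CPM in replicate 3, against a group median of 5.44. In sham, replicate 4 stood high for 4 genes. Irf7 had 13.7 CPM there (median of sham 5.65), Zbp1 2.29 (0.790), Rsad2 3.17 (1.18) and Oasl1 0.979 (0.365). Usp18 had 0.675 CPM in sham replicate 5 (median 2.01), and Xaf1 had 12.1 CPM in sham replicate 3 (median 4.59). Sham replicate 4 also had the highest pan-leukocyte sum of the sham libraries, 63.4 CPM, and whether that bears on these values was not tested.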

How the results depend on the processing

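Of the 28 called genes, 26 kept their call without any 1 library and 24 were called in all 22 alternatives. The exceptions were Irgm1, Xaf1, Ddx58 and Mx2. Scaled by library size alone, 7741 of all tested genes were higher and 1929 lower, the members' median log2 fold change was 1.14, the receptor list had 14 higher and 2 lower, the sensing list 0 lower and the other interferon-stimulated genes 1 lower. The log2 ratios of marker sums were 0.52 for endothelial (adjusted exact permutation p = 0.039) and 1.605 for B cell markers (0.022). Parp12 and Nmi, not called otherwise, turned to a log2 fold change of 0.36 (edgeR adjusted p = 0.0025) and 0.28 (0.045). Upper-quartile factors gave 1.32 for B cell markers (0.044). Limma voom called 1 member lower (Ifih1), and leaving out sham replicates 4 and 5 gave 1 member lower (Ifih1), 1 other interferon-stimulated gene lower and Mx2 no longer called (edgeR adjusted p = 0.058). Without 1 library at a time, members higher ranged from 26 to 30 and lower from 0 to 2, all genes higher from 4136 to 4602 and lower from 3762 to 4224, the median from 0.71 to 0.88, receptor genes higher from 7 to 8, sensing genes higher from 13 to 15 and lower from 3 to 4, other interferon-stimulated genes higher from 24 to 28 and lower from 2 to 3, and the B cell log2 ratio from 1.06 to 1.88. The cause of these shifts was not tested. Replicate numbers are shared between groups, and no pairing by number was seen (correlations of deviations from -0.08 to 0.08, 0 of 5 libraries closest to their own number). Such correlations cannot exclude that samples of 1 number were handled together. With the replicate number as a block, 28 members were higher and 0 lower, with 4103 of all genes higher and 3917 lower, Ifitm3 gaining its call and Xaf1 losing it. Depth limits Mx1 and Oas3, with 22 and 21 counts over the sham libraries.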

Other observations

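Of 4 chemokine genes among the other interferon-stimulated genes, 3 were higher after TAC at low levels, where 28.9% of all tested genes were higher. Cxcl11, with 26 counts over the TAC libraries and 2 over the sham libraries, was too scarce to be tested. Ccl5 and Cxcl10 passed the filter on low counts only through their TAC libraries. Ccl5, which draws T cells and monocytes, averaged 2.13 ± 0.917 CPM in TAC and 0.256 ± 0.218 CPM in sham (SD, n = 5 each) and rose (log2 fold change 2.94, edgeR adjusted p = 0.00054). Cxcl10 averaged 1.55 ± 0.399 CPM in TAC and 0.342 ± 0.364 CPM in sham and rose (log2 fold change 2.01, edgeR adjusted p = 0.0044), and Cxcl9 averaged 2.36 ± 0.93 CPM in TAC and 0.719 ± 0.491 CPM in sham and rose (log2 fold change 1.62, edgeR adjusted p = 0.0076). Both bind the receptor CXCR3 of activated T cells. Without sham replicate 4 the log2 fold change of Cxcl10 was 2.98 and that of Ccl5 was 3.73. These 3 genes and those of the next paragraph were picked after their values were seen.

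The HIN-200 cluster of chromosome 1, whose products bind DNA, held genes that moved apart. Ifi203 averaged 26.5 ± 1.17 CPM in TAC and 13.8 ± 5.44 CPM in sham and rose (log2 fold change 0.93, edgeR adjusted p = 0.0025), Ifi204 averaged 11.6 ± 1.25 CPM in TAC and 13.2 ± 4.76 CPM in sham and was not called (log2 fold change -0.18, edgeR adjusted p = 0.49), and Ifi205 averaged 3.59 ± 1.32 CPM in TAC and 13.2 ± 2.59 CPM in sham and fell (log2 fold change -1.88, edgeR adjusted p = 4.4e-05). These neighbours are of like sequence, so reads that align to several of them may have gone uncounted. Eif2ak2, which encodes the RNA-activated kinase PKR that stops translation, averaged 33.2 ± 2.35 CPM in TAC and 18.4 ± 3.99 CPM in sham and rose (log2 fold change 0.85, edgeR adjusted p = 0.00030).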
